A study of Mus musculus with 14 samples.

Results

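The RNA levels of the 4 mouse Fc gamma receptor genes, Fcgr1, Fcgr2b, Fcgr3 and Fcgr4, and of Fcer1g were followed across brain macrophages and blood monocytes of mice with traumatic brain injury (TBI). The genes were found as all non-control array probes whose RefSeq accession maps to one of the 5 symbols, which gave 8 probes of 41174. Of the 5 genes, 4 entered the test among 21967 features, and all 5 entered it among 22214 features once flagged spots were kept.

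The study measured gene expression on 14 Agilent 1-colour arrays, in 4 Arg1+ brain macrophage samples, 4 Arg1- brain macrophage samples, 3 post-TBI blood monocyte samples and 3 normal blood monocyte samples. Arg1+ and Arg1- brain macrophages and post-TBI blood monocytes came from male YARG mice, which report the arginase-1 gene Arg1 by fluorescence, 1 day after controlled cortical impact, in which a piston bruises the brain surface. Normal blood monocytes came from YARG males without injury. Mice of all groups were 12 to 16 weeks old and carried the reporter, and sham-operated mice were not analysed here. Cells were sorted with antibodies that include CD45, CD11b and Ly6G, after Fc receptors had been blocked with rat serum, and their RNA was amplified before labelling. The labels do not say whether replicates were separate animals, so each p-value measures the spread between these samples, which may be technical. In sorted populations of this kind, fewer cells of a type and less RNA per cell cannot be told apart.

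Fc gamma receptors bind the constant region of IgG and let phagocytes take up antibody-coated particles. Fcgr1, Fcgr3 and Fcgr4 encode activating receptors whose signal and surface display depend on the FcR gamma chain, encoded by Fcer1g, which carries the ITAM signalling motif and recruits the kinase Syk. Fcgr2b encodes the only inhibitory receptor of the family, which recruits the phosphatase SHIP1 (Inpp5d) and raises the threshold for activation. Mouse microglia, macrophages and monocytes all express members of the family.

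The RefSeq promoter windows of Fcgr1, Fcgr4 and Fcgr2b are shown because Fcgr1 and Fcgr4 went in opposite directions between brain and blood and Fcgr2b is the inhibitory gene. Each window covers 250 bases before and 50 bases after the gene's start on GRCm38.p6, written 5′ to 3′ on the gene's strand. Capitals mark matches to any of 3 motifs searched on both strands.
Fcgr1, chr3:96293920-96294219, minus strand: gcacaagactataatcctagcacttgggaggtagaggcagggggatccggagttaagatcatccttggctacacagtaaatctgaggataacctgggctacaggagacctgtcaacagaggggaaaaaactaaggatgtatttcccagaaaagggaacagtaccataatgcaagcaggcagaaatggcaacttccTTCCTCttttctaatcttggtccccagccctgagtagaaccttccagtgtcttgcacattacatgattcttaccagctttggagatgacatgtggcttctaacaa
Fcgr4, chr1:171018676-171018975, plus strand: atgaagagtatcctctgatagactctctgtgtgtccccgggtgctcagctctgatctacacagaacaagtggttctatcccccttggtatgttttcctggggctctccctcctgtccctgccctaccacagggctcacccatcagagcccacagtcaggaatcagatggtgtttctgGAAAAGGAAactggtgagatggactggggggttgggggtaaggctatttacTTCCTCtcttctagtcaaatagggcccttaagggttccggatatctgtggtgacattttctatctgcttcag
Fcgr2b, chr1:170976022-170976321, minus strand: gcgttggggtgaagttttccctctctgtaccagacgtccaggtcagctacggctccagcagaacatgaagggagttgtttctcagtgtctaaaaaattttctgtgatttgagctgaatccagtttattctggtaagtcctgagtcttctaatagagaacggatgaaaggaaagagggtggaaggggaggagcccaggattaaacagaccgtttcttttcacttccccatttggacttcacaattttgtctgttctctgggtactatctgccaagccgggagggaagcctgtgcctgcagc
The motifs were GAGGAA, the core bound by the myeloid factor PU.1, GAAANNGAA, a core of elements bound by interferon regulatory factors, and TGANTCA, bound by AP-1. The Fcgr1 window held the PU.1 core on the other strand at positions -55 to -50 from the start. The Fcgr4 window held the interferon-type match GAAAAGGAA at -73 to -65 and the PU.1 core on the other strand at -22 to -17. The table has 2 starts for Fcgr3, chr1:171059354-171059653 and chr1:171059345-171059644 on the minus strand, and both windows held 1 PU.1 core on the other strand and none of the other motifs. None of the 3 motifs is in the Fcgr2b or Fcer1g window. Of 32851 mouse promoter windows of this length, 28.3% held the PU.1 core, 8.56% the interferon-type pattern and 7.81% the AP-1 pattern. The motifs did not overlap each other in these windows, and a match describes letters only. Fcgr1 lies on chromosome 3, whereas the other 4 genes lie on chromosome 1.

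Levels below are log2 of the processed signal over the array's 75th percentile, and differences are on that scale. Probes differ in how brightly they bind, so levels of different probes are not compared. All 8 probes were well above background on all 14 arrays and lay between the 95.29th and the 99.86th percentile of brightness. The scanner software flags unevenly lit spots as non-uniform, and such spots were left out. This removed 24.6% of spots in the brightest 1% and 0.00955% of those below the median brightness. Among the 112 values that 8 probes give on 14 arrays, 32 had no usable spot, so the test was repeated with flagged spots kept, and its value is given where it bears on a call.

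**Figure D1:**
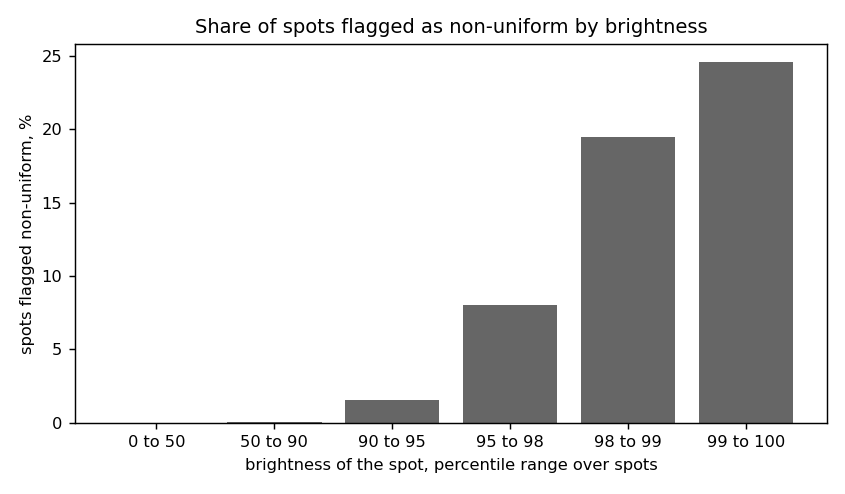
Share of spots flagged as non-uniform (%, y axis) by percentile range of spot brightness (x axis), over all 14 arrays. The share is 0.00955% below the median brightness and 24.6% in the brightest 1%, the range that holds the Fcer1g probe.

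Array brightness, taken as the 75th percentile of the processed signal, spanned 119.4 to 418.5. Between 50.4% and 68.69% of all probes on an array exceeded background clearly. Post-TBI blood replicate 4 stood high for several of the genes, as given beside each of them. Arrays were hybridised on 4 slides, of which 3 held 1 array of each group, so differences within slides are given too. With the slide as a block every call on the 5 genes was the same except Fcgr3 in Arg1+ cells against post-TBI blood (0.64, limma adjusted p = 0.0598). The macrophage and monocyte gene Csf1r was well above background on every array, with flagged spots kept, and averaged 6.56 ± 0.23 in Arg1+ cells, 6.43 ± 0.19 in Arg1- cells (SD, n = 4 each), 6.94 ± 0.55 in post-TBI monocytes and 6.79 ± 0.27 in normal monocytes (SD, n = 3 each). Itgam and Ptprc, which encode the sorting antigens CD11b and CD45, and the macrophage gene Adgre1 were well above background on all 14 arrays, and Cd68 was not among the tested features. Arg1, the sorting gene, averaged 6.41 in Arg1+ cells and 3.16 in Arg1- cells, a log2 difference of 3.25 ± 0.43 (SE, limma adjusted p = 0.000526).

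Fcgr1 and Fcgr2b were higher in both brain macrophage groups than in post-TBI monocytes, Fcgr4 was lower in both, and whether Fcgr3 was called depended on the probe and, with the dimmer probe, on single arrays. The Fcgr2b call in Arg1- cells was kept under only 18 of 27 alternatives. Between Arg1+ and Arg1- macrophages the 4 receptor genes all had higher means in Arg1+ cells, by 0.42 to 0.60, but none passed the test, with flagged spots left out. Between post-TBI and normal monocytes no gene of the 5 passed the test. Fcer1g was bright in every group and, with flagged spots kept, passed the test in none of these comparisons, although other scalings gave other answers.

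**Figure D2:**
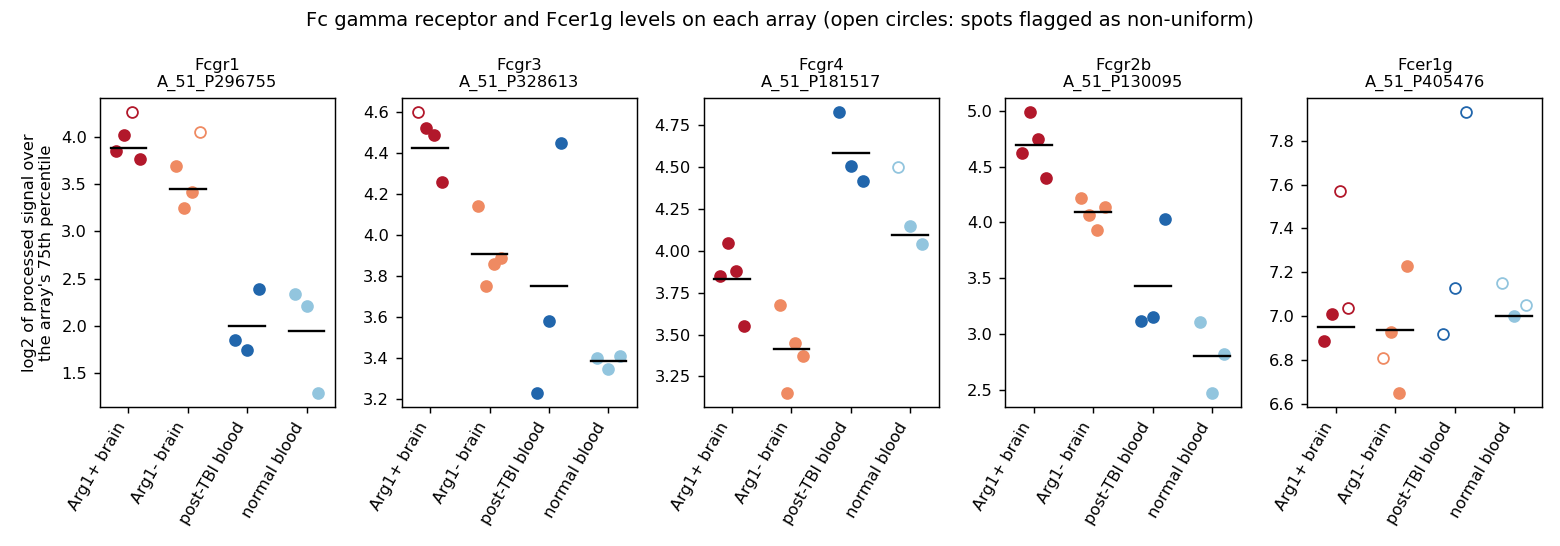
Level of each gene on every array (y axis, log2 of processed signal over the array's 75th percentile; a scale of its own in each panel) for Arg1+ brain, Arg1- brain, post-TBI blood and normal blood (x axis); filled points are usable spots, open circles flagged spots, and lines the means of usable spots. Fcgr1 lies at 3.25 and above in both brain groups and at 2.39 and below in both blood groups, whereas the highest group mean of Fcgr4 is in post-TBI blood.

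Fcgr1 encodes the high-affinity IgG receptor CD64, which is known as a macrophage and activated monocyte marker. Its only probe read 3.85, 4.02 and 3.76 in Arg1+ replicates 1, 2 and 4, against 1.85, 1.75 and 2.39 in post-TBI blood replicates 1, 3 and 4. All Arg1+ arrays stood above all post-TBI blood arrays. The spot of Arg1+ replicate 3 was flagged and read 4.26. The difference was 1.88 ± 0.26 (SE, n = 3 each, 3.68-fold, limma adjusted p = 8.43e-05). It was 1.90 and 2.11 on the 2 slides with usable spots in both groups. In Arg1- cells Fcgr1 read 3.69, 3.25 and 3.41 in replicates 1 to 3, with a flagged 4.05 in replicate 4. These values also stood above all post-TBI blood arrays, and the difference was 1.45 ± 0.26 (SE, 2.73-fold, limma adjusted p = 0.000904). Both calls held under each of 27 alternatives, with differences of 1.61 to 2.08 for Arg1+ cells and 1.31 to 1.65 for Arg1- cells.

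Between the brain groups, Fcgr1 averaged 3.88 ± 0.13 in Arg1+ cells and 3.45 ± 0.22 in Arg1- cells (SD, n = 3 each). The usable arrays did not overlap, yet the difference of 0.43 ± 0.26 did not pass the test (SE, limma adjusted p = 0.473). Its 95% interval ran from -0.14 to 1.00. With flagged spots kept the groups overlapped, and the difference was 0.37 ± 0.24 (SE, n = 4 each, limma adjusted p = 0.493). In normal blood the probe read 2.34, 2.21 and 1.29, and post-TBI minus normal was 0.05 ± 0.26 (SE, n = 3 each, limma adjusted p = 1). This difference was -0.15 without post-TBI blood replicate 4 and -0.28 without normal blood replicate 4.

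Fcgr3 encodes the low-affinity activating receptor known as CD16 in mice. The array has 2 probes for it. The probe A_51_P328613, used with flagged spots left out, read 4.52, 4.49 and 4.26 in Arg1+ replicates 2 to 4, against 3.23, 3.58 and 4.45 in post-TBI blood. Post-TBI blood replicate 4 lay inside the Arg1+ range, and the other 2 lay below it. The difference was 0.67 ± 0.25 (SE, n = 3 each, 1.59-fold, limma adjusted p = 0.0424). It fell short of the threshold under 20 of 27 alternatives. Among these, it was 0.42 with the authors' deposited log2 table (limma adjusted p = 0.184), and leaving out any 1 array other than Arg1+ replicate 1, Arg1- replicate 1 or post-TBI blood replicate 4 gave limma adjusted p from 0.0511 to 0.185. Without post-TBI blood replicate 4 it was 1.02 (limma adjusted p = 0.000307). The brighter probe A_52_P408757 had a usable spot on 7 of 14 arrays. Flagged spots included, it read 5.79, 6.23, 6.11 and 6.08 in Arg1+ cells, against 4.64, 4.61 and 4.97 in post-TBI blood. These groups did not overlap, and the difference was 1.31 ± 0.17 (SE, 2.48-fold, limma adjusted p = 1.6e-05), called under each of 21 alternatives. These 21 are a smaller set than the 27 run for the dimmer probe. Left out were, among others, a fit of only the groups compared, no filter on dim probes and no intensity trend. Under each of those the dimmer probe fell short of the threshold.

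In Arg1- cells A_51_P328613 read 4.14, 3.75, 3.86 and 3.89, which spans part of the post-TBI blood range. The difference was 0.16 ± 0.23 (SE, n = 4 and 3, limma adjusted p = 0.665). Without post-TBI blood replicate 4 it was 0.51 and passed the test (limma adjusted p = 0.0251), and without post-TBI blood replicate 1 it was -0.10. The brighter probe A_52_P408757, flagged spots included, read 5.42, 5.58, 5.17 and 5.55 in Arg1- cells, above every post-TBI blood array. Its difference was 0.69 ± 0.17 (SE, limma adjusted p = 0.00469), and 0.43 for the mean of both probes (limma adjusted p = 0.0659). The 2 probes therefore gave different answers for Arg1- cells, and why was not tested.

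Both Fcgr3 probes were higher in Arg1+ than in Arg1- cells on every array. The difference of A_51_P328613, flagged spots left out, was 0.51 ± 0.23 (SE, n = 3 and 4, limma adjusted p = 0.262), and it passed the test without post-TBI blood replicate 4 (limma adjusted p = 0.037). The difference of A_52_P408757, flagged spots kept, was 0.62 ± 0.15 (SE, n = 4 each, 1.54-fold) and passed the test (limma adjusted p = 0.0288). This call was lost on leaving out Arg1+ replicate 2, 3 or 4 or Arg1- replicate 1 or 3, with limma adjusted p of 0.07 to 0.11. It was also lost with quantile normalization (0.42, limma adjusted p = 0.0813) and with each array's median as the scale (0.70, limma adjusted p = 0.0645). In normal blood A_51_P328613 read 3.40, 3.35 and 3.41, and post-TBI minus normal was 0.37 ± 0.25 (SE, n = 3 each, limma adjusted p = 0.917). Without post-TBI blood replicate 4 that difference was 0.02.

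Fcgr4 encodes an activating receptor of intermediate affinity, which binds IgG2a and IgG2b in mice. It fell in both brain groups against post-TBI blood. Its probe read 3.85, 4.05, 3.88 and 3.55 in Arg1+ cells, against 4.83, 4.51 and 4.42 in post-TBI blood. No Arg1+ array reached the lowest post-TBI blood array, and the difference was -0.75 ± 0.17 (SE, n = 4 and 3, 1.68-fold lower, limma adjusted p = 0.0032). In Arg1- cells it read 3.68, 3.15, 3.45 and 3.37, also below every post-TBI blood array. This difference was -1.17 ± 0.17 (SE, n = 4 and 3, 2.25-fold lower, limma adjusted p = 0.000139). On the 3 slides that hold all groups the difference ran from -1.28 to -0.54 for Arg1+ cells and from -1.68 to -0.74 for Arg1- cells. Both calls held under each of 27 alternatives.

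Between the brain groups, Fcgr4 averaged 3.83 ± 0.21 in Arg1+ cells and 3.41 ± 0.22 in Arg1- cells (SD, n = 4 each). The arrays overlapped, and the difference of 0.42 ± 0.16 did not pass the test (SE, limma adjusted p = 0.175). It was positive on each of the 4 slides, from 0.20 to 0.60. In normal blood the 2 usable arrays read 4.15 and 4.04, and a flagged spot read 4.50. Post-TBI minus normal was 0.49 ± 0.21 (SE, n = 3 and 2, limma adjusted p = 0.701), and the arrays overlapped once the flagged spot was kept.

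Markers of Ly6C-low and of Ly6C-high monocytes moved with Fcgr4 between brain and blood. The 10 measured markers of Ly6C-low monocytes, of 12 listed, all fell in Arg1+ cells against post-TBI blood, where 20% of all features were lower. In Arg1- cells 9 of these markers fell, against 16.4% of all features. Their summed level, as multiples of the array's 75th percentile with flagged spots kept, was 10.2 to 11.3 in Arg1+ cells, 27.9 to 30.5 in Arg1- cells, 190 to 223 in post-TBI blood and 207 to 259 in normal blood. Ace, which encodes the angiotensin-converting enzyme, fell by 7.09 in Arg1+ cells (limma adjusted p = 7.89e-09), and Cd300e fell by 5.23 in Arg1- cells (limma adjusted p = 1.63e-08). Every sum in blood lay above every sum in brain. Between the brain groups the sums were lower in Arg1+ cells, where the mean of Fcgr4 was higher without passing the test. Of 8 tested markers of Ly6C-high monocytes, of 10 listed, 7 fell in Arg1+ cells and 6 fell in Arg1- cells, against post-TBI blood in limma with flagged spots left out. The shares of all features that fell were 20% and 16.4%. With flagged spots kept, 8 of 10 fell and 1 rose in Arg1+ cells, against 20.1% of all features each way. In Arg1- cells 7 of 10 then fell, against 16.4%. The summed level of the Ly6C-high markers was 78.1 to 113 in Arg1+ cells, 114 to 133 in Arg1- cells, 297 to 318 in post-TBI blood and 219 to 362 in normal blood. Of 11 tested markers of macrophages and monocytes in general, of 12 listed, 5 rose and 1 fell in Arg1+ cells relative to post-TBI blood. The shares of all features were 19.9% and 20%. In Arg1- cells 4 of the 11 markers rose and 2 fell, against 17% and 16.4% of all features. Their sums overlapped, at 313 to 398 in Arg1+ cells, 270 to 315 in Arg1- cells, 302 to 511 in post-TBI blood and 287 to 368 in normal blood. The part of these cells in the Fcgr4 result was not tested.

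Fcgr2b encodes the inhibitory receptor CD32b and has 3 probes, one of them spotted 10 times per array. The 10 spots of A_51_P130095 had an SD between 0.03 and 0.33 within an array, and 19 of 140 spots were flagged. Its mean read 4.62, 4.99, 4.75 and 4.40 in Arg1+ cells, against 3.12, 3.15 and 4.03 in post-TBI blood. All Arg1+ arrays stood above all post-TBI blood arrays, and the difference was 1.26 ± 0.23 (SE, n = 4 and 3, 2.39-fold, limma adjusted p = 0.000402). This call held under each of 27 alternatives, with differences of 1.05 to 1.56. In Arg1- cells it read 4.22, 4.07, 3.93 and 4.14, and post-TBI blood replicate 4 lay inside that range. The difference was 0.65 ± 0.23 (SE, n = 4 and 3, 1.57-fold, limma adjusted p = 0.0367). It fell short of the threshold without Arg1- replicate 1, 2 or 4 or post-TBI blood replicate 1 or 3, with differences of 0.50 to 0.66 and limma adjusted p of 0.0615 to 0.161, and was 0.95 without post-TBI blood replicate 4 (limma adjusted p = 0.00179). It also fell short with each array's median as the scale (limma adjusted p = 0.117), with no filter on dim probes (limma adjusted p = 0.0758) and in a fit of only the 2 groups (limma adjusted p = 0.0768).

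Between the brain groups, Fcgr2b averaged 4.69 ± 0.25 in Arg1+ cells and 4.09 ± 0.12 in Arg1- cells (SD, n = 4 each). Every Arg1+ array stood above every Arg1- array, but the difference of 0.60 ± 0.21 did not pass the test across all features (SE, limma adjusted p = 0.124). Its 95% interval ran from 0.16 to 1.05. The test was passed in a fit of only these 2 groups (limma adjusted p = 0.0416) and without post-TBI blood replicate 4 (limma adjusted p = 0.0291), an array of neither group that enters the shared estimate of the spread. On each of the 4 slides the difference was positive, from 0.33 to 1.07. In normal blood the probe read 3.11, 2.47 and 2.82, below every post-TBI blood array. Post-TBI minus normal was 0.63 ± 0.24 (SE, n = 3 each) and did not pass the test (limma adjusted p = 0.631), and it was 0.34 without post-TBI blood replicate 4.

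The other 2 Fcgr2b probes gave differences in the same direction, with flagged spots kept and no test of their own except for the brightest. A_51_P130101 read 5.03 ± 0.22 in Arg1+ cells, 4.50 ± 0.12 in Arg1- cells (SD, n = 4 each), 3.79 ± 0.48 in post-TBI blood and 3.33 ± 0.24 in normal blood (SD, n = 3 each). As the brightest probe it passed the test for Arg1+ cells against post-TBI blood (1.24 ± 0.21, SE, limma adjusted p = 0.00022) and for Arg1- cells against post-TBI blood (0.71 ± 0.21, SE, limma adjusted p = 0.016). The call for Arg1- cells was lost without post-TBI blood replicate 1 (0.61, limma adjusted p = 0.0594) or replicate 3 (0.53, limma adjusted p = 0.0984), and with each array's median as the scale (0.68, limma adjusted p = 0.0637). A_52_P545613 was 1.68 higher in Arg1+ cells and 1.01 higher in Arg1- cells than in post-TBI blood, and its Arg1- arrays did not overlap with post-TBI blood.

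**Figure D3:**
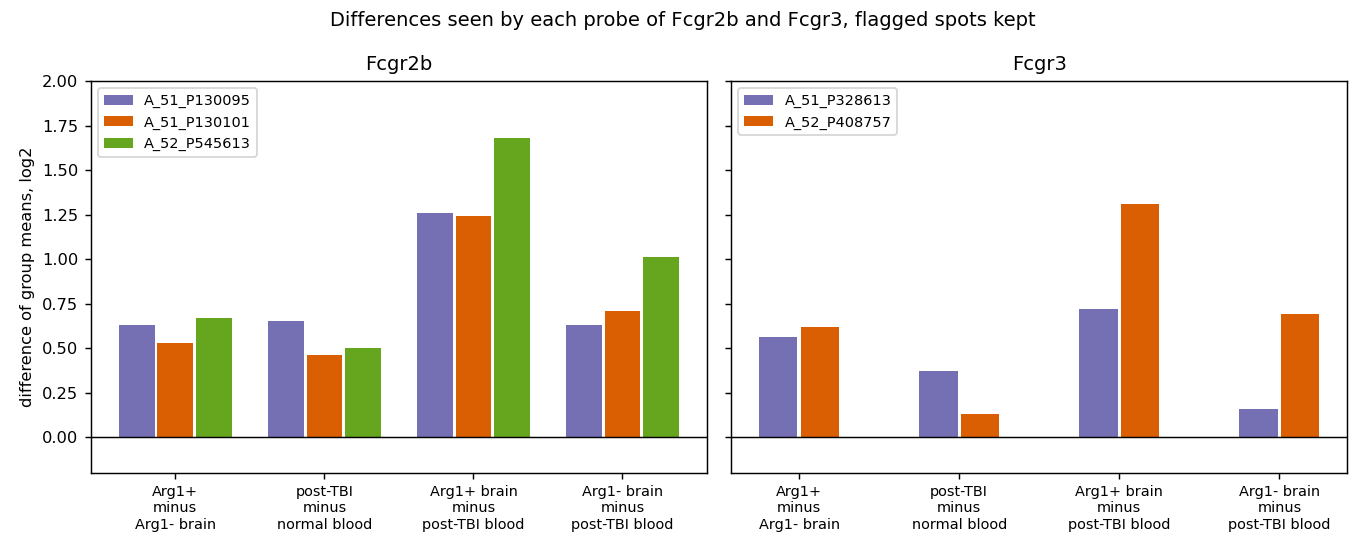
Difference of group means (log2, y axis) for each probe of Fcgr2b and Fcgr3, with flagged spots kept, in the 4 comparisons (x axis; bars start at 0, no error shown). The 3 Fcgr2b probes lie between 1.24 and 1.68 for Arg1+ brain minus post-TBI blood, whereas the Fcgr3 probes give 0.72 and 1.31.

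Fcer1g, the shared signalling chain of the activating receptors, had 1 probe, with usable spots on 6 of 14 arrays and on none of post-TBI blood, and could not be tested without flagged spots. The usable spots read 6.89 and 7.01 in Arg1+ cells and 6.93, 6.65 and 7.23 in Arg1- cells, and 1 normal blood array had a usable spot. Flagged spots included, Fcer1g averaged 7.13 ± 0.30 in Arg1+ cells, 6.91 ± 0.25 in Arg1- cells (SD, n = 4 each), 7.33 ± 0.54 in post-TBI blood and 7.07 ± 0.08 in normal blood (SD, n = 3 each). All 4 groups overlapped. Arg1+ minus Arg1- was 0.22 ± 0.24 (SE, limma adjusted p = 0.742) and turned to -0.17 with quantile normalization. Post-TBI minus normal blood was 0.26 ± 0.27 (SE, limma adjusted p = 1), and -0.04 without post-TBI blood replicate 4, which read 7.93 against 6.92 and 7.13.

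Against post-TBI blood, Fcer1g differed by -0.20 ± 0.26 in Arg1+ cells (SE, limma adjusted p = 0.586), which became 0.10 without post-TBI blood replicate 4. In Arg1- cells the difference was -0.42 ± 0.26 (SE, limma adjusted p = 0.232). Both differences passed the test after quantile normalization of the same spots (-0.76, limma adjusted p = 0.00265, and -0.59, limma adjusted p = 0.0162) and with the authors' deposited log2 table (-0.72, limma adjusted p = 0.00212, and -0.57, limma adjusted p = 0.0131). The call for Fcer1g therefore depends on the scaling, and no direction between brain and blood is given for it.

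Counted together with flagged spots left out, 3 of the 4 tested genes rose and 1 fell in Arg1+ cells relative to post-TBI blood, where 19.9% of all features were higher and 20% lower. Flagged spots kept, 3 of 5 were higher and 1 lower, against 20.1% of features higher and 20.1% lower. In Arg1- cells 2 of 4 were higher and 1 lower, against 17% and 16.4% of features. Flagged spots kept, 3 of 5 were higher and 1 lower, against 17.2% and 16.4%. With flagged spots left out, the Fcgr3 call in Arg1+ cells was kept under only 7 of 27 alternatives. The Fcgr2b call in Arg1- cells was kept under 18 of 27. Both counts of higher genes therefore depend on the processing and on single arrays. Both comparisons share the 3 post-TBI blood arrays, so they are not independent of each other.

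Arg1+ cells against Arg1- cells had 0 of 4 genes called in either direction, with 2.14% of features higher and 2.9% lower in limma. With flagged spots kept 1 of 5 was higher and 0 lower, against 2.33% and 2.99%. Without adjustment 3853 of 21967 features had a limma p under 0.05, among them Fcgr2b, Fcgr3 and Fcgr4. Post-TBI against normal monocytes had 0 of 4 genes called in either direction, with 0.109% of features higher and 0.041% lower. With flagged spots kept it was 0 of 5, against 0.108% and 0.045%. Without adjustment 1426 of 21967 features had a limma p under 0.05 between the blood groups, among them Fcgr2b and Fcgr4.

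**Figure D4:**
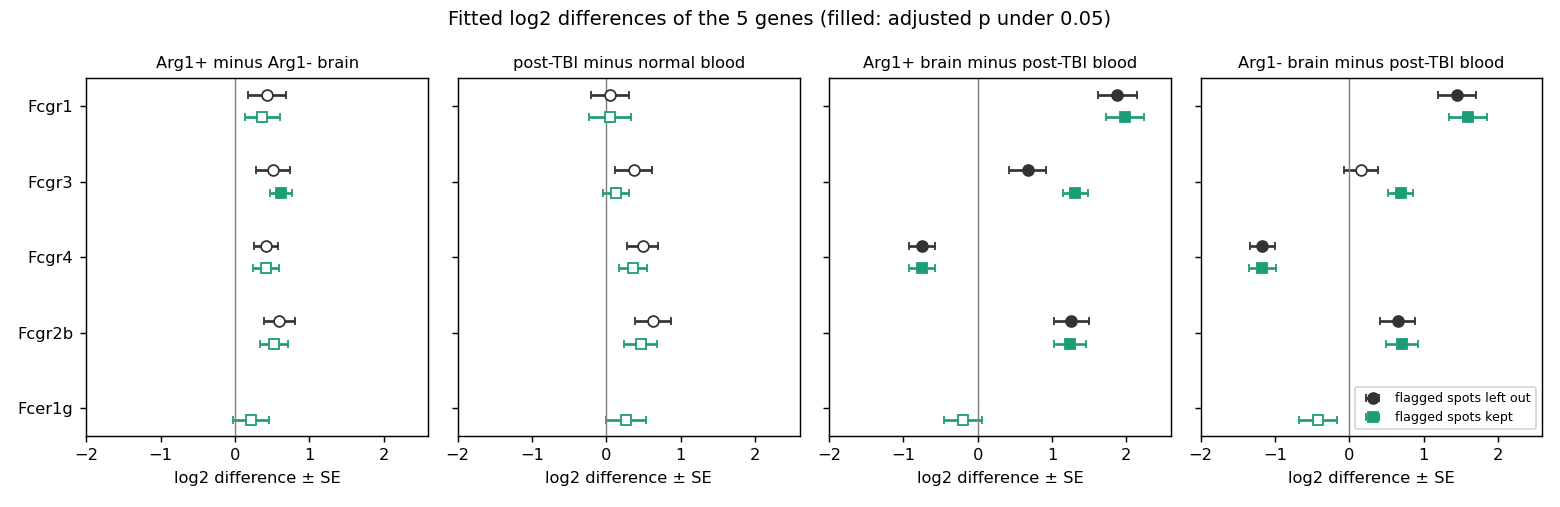
Fitted log2 difference with its standard error (x axis) for the 5 genes (y axis) in the 4 comparisons, with flagged spots left out (circles) and kept (squares); filled symbols have a limma adjusted p under 0.05. Fcgr1 and Fcgr2b lie right of 0 and Fcgr4 left of 0 in both comparisons of brain with post-TBI blood, and no symbol is filled for post-TBI against normal blood.

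The order of the group means was the same for Fcgr1, Fcgr2b and Fcgr3, with Arg1+ cells highest, then Arg1- cells, post-TBI blood and normal blood. For Fcgr1 the Arg1+ and Arg1- neighbours did not pass the test, nor did the 2 blood groups, whereas Arg1- cells and post-TBI blood did. The same held for Fcgr2b, and for Fcgr3 no pair of neighbours passed it with all arrays in the fit and flagged spots left out. For Fcgr4 the order was post-TBI blood, normal blood, Arg1+ cells and Arg1- cells, and no pair of neighbours passed the test. Arg1+ cells against normal blood gave -0.26 ± 0.20 for Fcgr4 (SE, n = 4 and 2, limma adjusted p = 0.329), and Arg1- cells against normal blood gave -0.68 ± 0.20 (SE, n = 4 and 2, limma adjusted p = 0.0159).

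Set against the inhibitory receptor on the same array, Fcgr4 was lower in brain than in blood on every array. Such a difference between 2 probes has no meaning as a level, and only its change across groups was read, without a test. Fcgr4 minus Fcgr2b was -0.86 ± 0.07 in Arg1+ cells, -0.68 ± 0.21 in Arg1- cells (SD, n = 4 each), 1.15 ± 0.68 in post-TBI blood (SD, n = 3) and 1.45 ± 0.33 in normal blood (SD, n = 2). Every brain array lay at -0.48 or below and every blood array at 0.39 or above. When flagged spots were kept, which changes the Fcgr2b probe, brain arrays lay at -0.81 or below and blood arrays at 0.08 or above.

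Fcgr3 minus Fcgr2b was -0.29 ± 0.17 in Arg1+ cells (SD, n = 3), -0.18 ± 0.12 in Arg1- cells (SD, n = 4), 0.32 ± 0.19 in post-TBI blood and 0.58 ± 0.29 in normal blood (SD, n = 3 each). Brain and blood did not overlap with these probes. They did overlap with the brighter probes and flagged spots kept, at 1.02 ± 0.14 in Arg1+ cells, 0.93 ± 0.09 in Arg1- cells, 0.95 ± 0.29 in post-TBI blood and 1.29 ± 0.30 in normal blood. Fcgr1 minus Fcgr2b was -0.80 ± 0.17 in Arg1+ cells, -0.62 ± 0.17 in Arg1- cells, -1.44 ± 0.19 in post-TBI blood and -0.85 ± 0.64 in normal blood (SD, n = 3 each). Here all brain arrays lay above all post-TBI blood arrays, and normal blood spanned both.

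**Figure D5:**
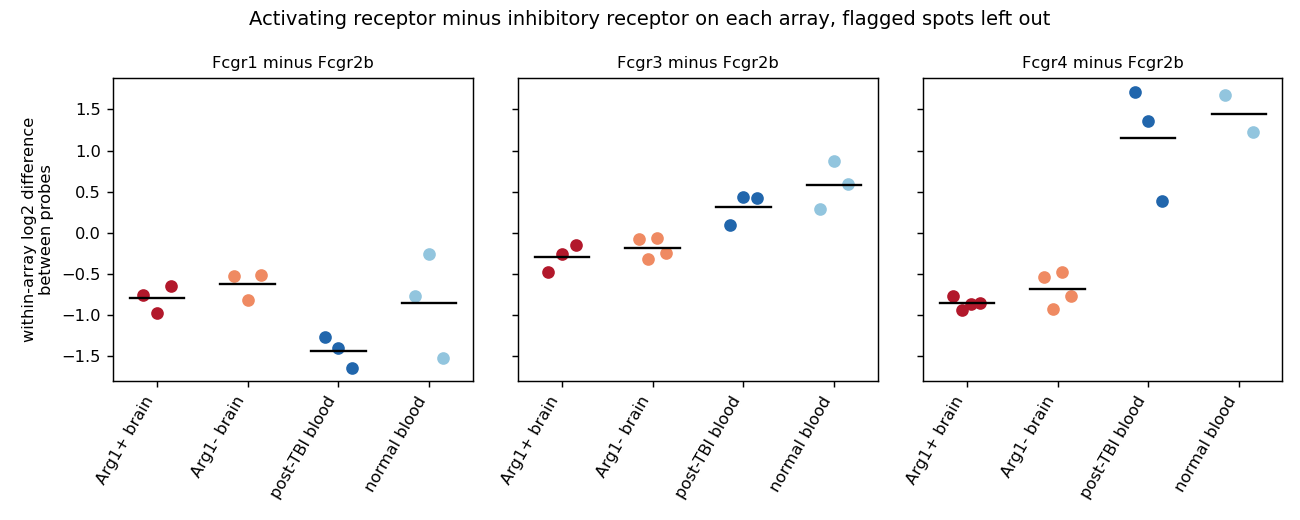
Within-array log2 difference between the probe of an activating receptor and the Fcgr2b probe (y axis) for each array of Arg1+ brain, Arg1- brain, post-TBI blood and normal blood (x axis), with flagged spots left out; lines are group means. Fcgr4 minus Fcgr2b is -0.48 or lower on every brain array and 0.39 or higher on every blood array.

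Across the 14 arrays with flagged spots kept, Fcgr1, Fcgr2b and Fcgr3 varied together, with Pearson r of 0.90 to 0.95 between pairs. Fcgr4 ran against them, with r of -0.66, -0.55 and -0.61, and Fcer1g followed none of them closely, with r between -0.05 and 0.30. These correlations mostly restate the gap between brain and blood arrays and share the arrays' scaling. The genes most like each receptor among 12461 named genes were Myo5a, Spryd7 and 4930503L19Rik for Fcgr1 (r = 0.970 to 0.978, 12 arrays), Arfgef2, Ergic1 and Acp5 for Fcgr2b (r = 0.971 to 0.974, 14 arrays) and Vac14, Tcn2 and Ubap2l for Fcgr3 (r = 0.975 to 0.980, 13 arrays). For Fcgr4 they were Ms4a8a, Igsf6 and Fam118b (r = 0.908 to 0.919, 13 arrays), and for Fcer1g, with flagged spots kept, Med12, Utp23 and Rpl23a (r = 0.919 to 0.942, 14 arrays).

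Among other receptors for antibodies, 7 of 13 listed genes were tested. In Arg1+ cells 1 was higher and 4 lower than in post-TBI blood, against 19.9% and 20% of all features, with a median difference of -1.12 against -0.03 over all features. In Arg1- cells 1 was higher and 3 lower, against 17% and 16.4%, with a median of -1.03 against -0.02. The gene that rose was Fcrls, an Fc receptor-like gene known as a microglia marker in mice, by 6.15 ± 0.21 in Arg1+ cells (SE, limma adjusted p = 1.82e-11) and 5.62 ± 0.21 in Arg1- cells (SE, limma adjusted p = 8.45e-11). Fcer2a, the low-affinity IgE receptor known from B cells, fell by 2.33 in Arg1+ cells (limma adjusted p = 4.78e-06) and by 2.06 in Arg1- cells (limma adjusted p = 2.44e-05). It was well above background on 1 of 4 arrays in each brain group, and over the alternatives the difference ran from -2.59 to -0.72 in Arg1+ cells and from -2.32 to -0.69 in Arg1- cells. Fcmr, the IgM receptor, was not well above background in brain macrophages and was at least 3.12-fold lower in Arg1+ cells and at least 3.44-fold lower in Arg1- cells (limma adjusted p = 1.12e-05 and 1.75e-05). These bounds belong to the main processing. Over the alternatives the log2 difference of Fcmr ran from -3.91 to -0.82 in Arg1+ cells and from -4.01 to -0.82 in Arg1- cells. None of the 7 passed the test between Arg1+ and Arg1- cells or between post-TBI and normal blood in limma.

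Microglia and B cell markers moved with these genes. Of 11 microglia markers, 9 were higher and 1 lower in Arg1+ cells than in post-TBI blood, against 19.9% and 20% of all features. In Arg1- cells 8 of these markers were higher and 1 lower, against 17% and 16.4%. Their summed level was 47.4 to 74.3 in Arg1+ cells, 39.9 to 57.1 in Arg1- cells, 23.5 to 26.2 in post-TBI blood and 25.1 to 27.1 in normal blood, and Siglech and Slc2a5 were not well above background on any blood array. Olfml3, a secreted protein gene typical of microglia, was 5.29 ± 0.24 higher in Arg1+ cells (SE, limma adjusted p = 3.49e-10). Of 8 tested B cell markers, of 9 listed, 6 were lower in Arg1+ cells than in post-TBI blood, against 20% of all features. In Arg1- cells 7 were lower, against 16.4%. Their summed levels were 2.78 to 3.26, 2.04 to 2.62, 6.68 to 6.82 and 5.06 to 5.87 in Arg1+ cells, Arg1- cells, post-TBI blood and normal blood. The part of microglia and B cells in the receptor differences, Fcgr1 and Fcgr2b included, was not tested.

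Of 15 genes listed as receptors that pair with the FcR gamma chain, 12 were tested. The list also holds Clec5a, which is not an established partner of that chain. In each brain group 4 of the 12 were higher and 2 lower than in post-TBI blood. The shares of all features were 19.9% and 20% for Arg1+ cells and 17% and 16.4% for Arg1- cells, and the list medians were -0.07 in Arg1+ cells and -0.04 in Arg1- cells. Clec4n, which encodes the fungal receptor dectin-2, was 5.65 ± 0.26 higher in Arg1+ cells (SE, limma adjusted p = 4.29e-10) and 4.87 ± 0.26 higher in Arg1- cells (SE, limma adjusted p = 4.19e-09). Clec4d, a related lectin receptor, was 3.96 ± 0.24 higher in Arg1+ cells, from 2 usable Arg1+ arrays (SE, limma adjusted p = 2.37e-07), and Clec5a was 3.43 ± 0.30 higher in Arg1- cells (SE, limma adjusted p = 7.14e-07). Lilra5 was not well above background on any Arg1+ array and was at least 36.8-fold lower there in the main processing (limma adjusted p = 4.61e-09). Over the alternatives its log2 difference ran from -5.75 to -3.13. Between post-TBI and normal blood 1 of the 12 was higher and 0 lower, against 0.109% and 0.041% of all features. The gene was Clec4e, which encodes Mincle, at 1.20 ± 0.20 (SE, limma adjusted p = 0.0268). This call was lost under 11 of 27 alternatives. Among them was each array left out of post-TBI blood replicates 3 and 4, normal blood replicates 2 and 4, Arg1+ replicate 3 and Arg1- replicates 3 and 4. With flagged spots kept 2 of the 12 were higher in post-TBI than in normal blood, against 0.108% of all features. Between Arg1+ and Arg1- cells 1 of the 12 was then higher in Arg1+ cells, against 2.33% of all features. With flagged spots left out it was 0 of the 12, against 2.14%.

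Of 16 tested ITAM signalling genes, which carry the signal of the activating receptors, of 23 listed, 6 rose and 6 fell in Arg1+ cells relative to post-TBI blood, where 19.9% of all features were higher and 20% lower. In Arg1- cells 5 rose and 6 fell, against 17% and 16.4% of features. The list medians of -0.05 in Arg1+ cells and -0.19 in Arg1- cells stood beside -0.03 and -0.02 over all features. Among 22 tested with flagged spots kept, 6 rose and 10 fell in Arg1+ cells, against 20.1% and 20.1% of all features. In Arg1- cells 6 rose and 8 fell, against 17.2% and 16.4%. The adaptor gene Blnk was 3.74 ± 0.24 higher in Arg1+ cells (SE, limma adjusted p = 1.3e-08), with 1 of 3 post-TBI blood arrays well above background and a range of 1.81 to 3.88 over the alternatives. The Src family kinase gene Fgr was lower in Arg1+ cells, by -2.32 ± 0.18 (SE, limma adjusted p = 1.4e-07). Src was 3.03 ± 0.28 higher in Arg1- cells (SE, limma adjusted p = 1.3e-06), and the adaptor Lcp2 was lower there, by -1.83 ± 0.17 (SE, limma adjusted p = 1.03e-06). Between Arg1+ and Arg1- cells 0 of 16 were higher and 2 lower in Arg1+ cells, against 2.14% and 2.9% of all features. They were Fgr, lower by -0.93 ± 0.17 (SE, limma adjusted p = 0.0048), and Src, lower by -0.98 ± 0.26 (SE, limma adjusted p = 0.0423). The Src call was lost under 12 of 27 alternatives, 9 of which left out 1 array.

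The inhibitory signalling list holds other inhibitory receptors, such as Cd300lf and Siglece, as well as adaptors such as Dok2, so it is not a list of Fcgr2b partners alone. Of its 16 tested genes, of 18 listed, 3 were higher and 9 lower in Arg1+ cells than in post-TBI blood, against 19.9% and 20% of all features. Their median was -0.60 against -0.03 over all features. In Arg1- cells 2 were higher and 6 lower, against 17% and 16.4%, with a median of -0.35 against -0.02. Those that rose included Cd300lf, an inhibitory receptor of myeloid cells, by 3.07 ± 0.29 in Arg1+ cells (SE, limma adjusted p = 7.3e-07), and the adaptor Dok2, by 2.80 ± 0.32 (SE, limma adjusted p = 5.44e-06). Siglece, an inhibitory sialic acid receptor, was lower in Arg1+ cells by -2.91 ± 0.26 (SE, limma adjusted p = 4.87e-07), and Cd300a was lower in Arg1- cells by -1.63 ± 0.22 (SE, limma adjusted p = 5.52e-05). Between the brain groups Siglece was lower in Arg1+ cells by -1.73 ± 0.24 (SE, limma adjusted p = 0.000585), and Cd300lf was 0.97 ± 0.27 higher (SE, limma adjusted p = 0.0486). The Cd300lf call was lost under 17 of 27 alternatives, 9 of which left out 1 array.

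Of 26 tested genes of the phagocytic cup, of 29 listed, 4 were higher and 7 lower in Arg1+ cells than in post-TBI blood, against 19.9% and 20% of all features, and 3 were higher and 5 lower in Arg1- cells, against 17% and 16.4%. These counts were close to the shares of all features, and the medians were -0.08 in Arg1+ cells and -0.12 in Arg1- cells. Myo10, an unconventional myosin of filopodia and phagocytic extensions, was 2.42 ± 0.21 higher in Arg1+ cells (SE, limma adjusted p = 3e-07) and 2.39 ± 0.21 higher in Arg1- cells (SE, limma adjusted p = 6.13e-07). The actin regulator Coro1a was lower in Arg1+ cells by -1.61 ± 0.20 (SE, limma adjusted p = 1.11e-05), and Was, which encodes the WASP protein, was lower in Arg1- cells by -1.26 ± 0.18 (SE, limma adjusted p = 8.03e-05). Between the brain groups 0 of the 26 were higher and 1 lower in Arg1+ cells, against 2.14% and 2.9% of all features. The gene was Coro1a, at -0.78 ± 0.18 (SE, limma adjusted p = 0.0203). This call was lost under 6 of 27 alternatives. Among them were the array median as scale, the replicate block, and leaving out Arg1+ replicate 1 or Arg1- replicate 3 or 4.

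Interferon-stimulated genes were counted because interferon gamma is known to raise Fcgr1 and Fcgr4. Of 23 tested, of 25 listed, 9 were higher and 5 lower in Arg1+ cells than in post-TBI blood, against 19.9% and 20% of all features, with a median of 0.49. In Arg1- cells 12 were higher and 4 lower, against 17% and 16.4%, with a median of 0.83. The shares that were lower were near those of all features. Isg15 was 2.10 ± 0.23 higher in Arg1+ cells (SE, limma adjusted p = 4.77e-06) and Cxcl10 was 3.14 ± 0.39 higher in Arg1- cells (SE, limma adjusted p = 2.16e-05). Cxcl9 was lower in Arg1+ cells, with a difference of -3.99 to -0.91 over the alternatives. Against normal blood the list went the other way in Arg1+ cells, with 1 higher and 8 lower and a median of -0.40. There 4335 of 21967 features were higher and 4556 lower. In Arg1- cells 2 were higher and 5 lower than in normal blood, with a median of -0.07, beside 3557 and 3534 features. In post-TBI against normal blood 0 of the 23 were higher and 1 lower, against 0.109% and 0.041% of all features. The list median was -0.90 against 0 over all features. The gene called was Ifit3, lower by -2.48 ± 0.41 (SE, limma adjusted p = 0.0241). The Ifit3 call was lost under 7 of 27 alternatives, among them without Arg1+ replicate 4, post-TBI blood replicate 3 or normal blood replicate 2 or 3. Fcgr1 and Fcgr4 differed between those blood groups by 0.05 and 0.49 and did not pass the test.

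Neutrophils also carry Fc gamma receptors, and the sort used an antibody to Ly6G, the neutrophil antigen. Of 13 tested markers, of 14 listed, 1 was higher and 8 were lower in Arg1+ than in Arg1- cells, against 2.14% and 2.9% of all features, with Camp lower by -4.73 ± 0.68 (SE, limma adjusted p = 0.000753). Their summed level was 10.6 to 21.4 in Arg1+ cells, 35 to 145 in Arg1- cells, 17.2 to 97.6 in post-TBI blood and 31.5 to 219 in normal blood. Post-TBI blood replicate 4, which stood high for several receptor genes, held the 97.6, against 17.2 and 24.2 in replicates 1 and 3. Its sum for mast cell, basophil and eosinophil markers was 8.96, against 2.14 and 2.9. In Arg1- cells 8 of the 13 neutrophil markers were higher and 1 lower than in post-TBI blood, against 17% and 16.4% of all features. In Arg1+ cells 2 were higher and 4 lower, against 19.9% and 20%. Natural killer (NK) cell sums were 0.591 to 0.796 in Arg1+ cells, 1.21 to 2.74 in Arg1- cells, 1.43 to 3.43 in post-TBI blood and 1.27 to 5.6 in normal blood. Of 9 tested NK cell markers, of 10 listed, 0 were higher and 5 lower in Arg1+ cells than in post-TBI blood, against 19.9% and 20%. In Arg1- cells 0 were higher and 2 lower, against 17% and 16.4%. Of the other marker lists, dendritic cell sums were 1.18 to 1.49 in Arg1+ cells and 6.53 to 9.36 in Arg1- cells, and platelet sums were 107 to 141 in Arg1+ cells and 19.8 to 29.8 in Arg1- cells. Of 7 tested platelet markers, of 9 listed, only 1 was higher and 0 lower in Arg1+ than in Arg1- cells, against 2.14% and 2.9% of features. Their median difference was -0.29. With flagged spots kept 2 of 8 were higher, against 2.33% of all features. Gp9 was not well above background on any Arg1+ array. The 4 receptor genes tested had higher means in Arg1+ cells, the group with the lower neutrophil, NK cell and dendritic cell sums and the higher platelet sum. Whether these cells carried any of the receptor RNA was not tested.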

How the data were processed

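RNA of sorted cells was measured on 14 one-colour (Cy3) Agilent arrays. Each scanner file is, per the file headers, Feature Extraction 10.7.3.1 output with 1 row per spot. From the deposited columns the processed, median and background intensity and, as other values, the yes-or-no flags of each spot were read. A second table holds the authors' deposited log2 values, whose ranks within each array equal those of the median spot signal, with nearly 1 distribution for all arrays. The submitters' processing notes name limma without a version. Symbols were assigned from a RefSeq table made on GRCm38.p6.

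Each array's processed signal was divided by its 75th percentile over non-control probes, floored at 0.05 and taken to log2. Spots flagged as non-uniform or population outliers were left out. Probes needed 2 usable arrays in every group and had to be well above background on at least 3 arrays, and the brightest kept probe stood for a gene. All 14 arrays entered 1 two-sided limma 3.58.1 fit (R 4.3.3) with an intensity trend, Benjamini-Hochberg adjustment over all features per comparison and a threshold of 0.05. The filter and fit were repeated with flagged spots kept, and the fit was tested on simulated data. Same-numbered replicates were not treated as pairs, since the correlation of their deviations from the group means was -0.46 to 0.41 between Arg1+ and Arg1- arrays. For arrays of the same slide it was 0.04 to 0.59 there, and the slide entered only as an alternative. As a block it gave 1502 called features between Arg1+ and Arg1- cells, against 1108 in the main fit. Between post-TBI and normal blood it gave 32, against 33. Values after ± are SD for levels and SE for differences, as marked. Precision is limited by having 3 or 4 arrays in a group, and 0 spots were saturated.

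The genes, the lists and the tests were chosen with earlier results of these data known. Named list genes are up to 3 called genes with the largest change per list and comparison, or 1 per marker list, and the genes most like each receptor are the 3 with the highest correlation. Not every gene this rule picks is printed. Fc receptor genes are close paralogs, so probes may take up RNA of another member. Alternatives covered scaling, background correction, filters, probe choice, blocks and each array left out. The mean spot signal is not a column of the files, so normexp used the median spot signal. Sequences of the array's probes and of proteins were not used here.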

Additional observations from a re-analysis of the deposited data

Results flagged for a closer look

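Among 130 sets of 4 arrays checked for 1 array far from the others, 6 stood out, and chance gives about 1 in 20. None of the 30 sets of Fc receptor values was among them. Groups with fewer than 4 usable arrays, both blood groups included, were not checked, so post-TBI blood replicate 4 could not stand out here. Coro1a read 4.37 in Arg1+ replicate 1, against 4.65 to 4.71 in the other Arg1+ arrays. Adgre1 read 3.16 in Arg1- replicate 2, against 3.25 in the others. The remaining 4 are single arrays just or well above a floor of -4.32. Dpp4 read -4.02 in Arg1+ replicate 2, Gzma -4.16 and Gata2 -2.11 in Arg1+ replicate 4, and Cxcl9 -4.19 in Arg1- replicate 4.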

How the results depend on the processing

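Over all member differences, 789 of 852 alternative values kept their direction and their side of the threshold, including every one for Fcgr1 and Fcgr4 between brain and post-TBI blood. Arg1+ against Arg1- cells had 0 of 4 genes called, but 1 with flagged spots kept or in a fit of only these groups, and 0 to 2 when single arrays were left out. The number of all features called there was 1108, and 602 to 1790 when single arrays were left out, with 698 without Arg1+ replicate 3, 602 without Arg1- replicate 3 and 1790 without post-TBI blood replicate 4. With flagged spots kept it had 1 of 5 genes called, 0 with quantile normalization or each array's median as the scale, and 0 to 2 when single arrays were left out. Post-TBI against normal blood had 33 features called, 20 with normexp and quantile normalization, 0 in a fit of only the blood groups, 2 with the replicate block, and 2 to 60 when single arrays were left out; the extremes came without post-TBI blood replicates 3 and 1. Among its calls 72.7% were higher, and 60.9% with the authors' table. The replicate block otherwise left Fcgr3 in Arg1+ cells (0.62) and Fcgr2b in Arg1- cells (0.59) short of the threshold against post-TBI blood; the replicate numbers do not pair the samples. Scaling moved the median of all features by at most 0.08. The order of the 4 group means held for all 4 genes in each setting run but 3, without post-TBI blood replicate 1 or 4 or normal blood replicate 4, where it held for 3. Of list counts, 3469 of 3672 stayed within 1.5 times, and 1940 of 2025 values of named list genes kept direction and call. The causes were not tested. Fcer1g and the brighter probes of Fcgr2b and Fcgr3 are limited by flagged spots, with usable spots on 6, 2 and 7 of 14 arrays.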
